A study of Homo sapiens with 24 samples.

Results

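The E2F transcription factors and their DP partners are 10 genes, E2F1 to E2F8, TFDP1 and TFDP2, and all 10 were found by symbol and Ensembl identifier among the 14585 genes of the deposited table. Their RNA was followed in A549, a lung carcinoma cell line with wild-type p53, and in Huh7, a hepatoma cell line with mutant p53. Each line is labelled with the genotype WT and had control cultures beside cultures given extracts of Pulsatilla chinensis, Bupleurum chinense or Polyporus umbellatus. Each of the 8 groups held 3 libraries, 24 in all. The extracts were dissolved in DMSO according to the methods. Whether the control cells received DMSO, and the dose and hours used for the sequenced cells, are not given in the sources used here.

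E2F proteins bind promoters of cell cycle genes, most of them as dimers with a DP protein encoded by TFDP1 or TFDP2. In resting cells the pocket proteins RB1, RBL1 and RBL2 hold E2Fs in check, and cyclin-dependent kinases release them as cells commit to DNA replication. E2F1, E2F2 and E2F3 are classed as activators, E2F4 and E2F5 as repressors that work with pocket proteins, E2F6 as a repressor that works with a Polycomb complex, and E2F7 and E2F8 as atypical repressors that bind DNA without a DP partner. Several of the family's own genes are E2F targets, so that their RNA rises as cells enter S phase. In RNA from whole cultures, fewer cells in S phase and less E2F RNA per cell cannot be told apart.

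Promoters of the family are shown because genes of this family are among the known targets of E2F proteins. RefSeq windows around the annotated start sites (GRCh38.p14) were available for 8 of the 10 genes and none was found for E2F5 and E2F8. They were searched on both strands for the letters TTTCCCGC, TTTGGCGC, TTTCGCGC and TTTGCCGC, forms of the E2F site, and for TTTGAA and TTTAAA, forms of the CHR element of G2/M genes. E2F letters were found in windows of E2F1, E2F2, E2F3 and TFDP1, though an alternative window of E2F3 held none. No E2F letters were found in the windows of E2F4, E2F6, E2F7 and TFDP2. CHR letters were found in an E2F3 window, 65 bases before the start site and outside its E2F letters, and in alternative windows of TFDP2. Of all 35116 windows of the same length, 3.315% held E2F letters and 23.989% held CHR letters, and over the genes of the deposited table the shares were 4.64% and 18.3%. A match is a description of letters and not a measured binding site. The matches of E2F1 began 33 and 20 bases before its start site, that of E2F2 42 bases before, that of E2F3 53 bases before and that of TFDP1 120 bases before. The stretches around them lie at chr20:33686358-33686458 (minus strand) for E2F1, chr1:23531228-23531315 (minus strand) for E2F2, chr6:20401786-20401873 (plus strand) for E2F3 and chr13:113584593-113584680 (plus strand) for TFDP1. They are written 5′ to 3′ on the strand of the gene, with the E2F letters of either strand in capitals.
E2F1: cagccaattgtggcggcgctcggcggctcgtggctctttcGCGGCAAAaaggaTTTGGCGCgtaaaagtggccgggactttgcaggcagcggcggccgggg
E2F2: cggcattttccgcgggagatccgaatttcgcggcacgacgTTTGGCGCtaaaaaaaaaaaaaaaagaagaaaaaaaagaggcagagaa
E2F3: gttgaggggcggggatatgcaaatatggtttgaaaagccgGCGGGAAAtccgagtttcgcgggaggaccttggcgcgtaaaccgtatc
TFDP1: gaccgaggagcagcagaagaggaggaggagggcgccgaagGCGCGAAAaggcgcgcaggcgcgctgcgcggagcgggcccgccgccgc

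The libraries summed to 6803704 to 24345541 estimated counts, and the lowest count of any family member in any library was 44, for E2F2, so no member was near the limit of detection. Nothing in the sources states that replicates came from separate cultures, so the p-values measure the spread between these libraries, which may be technical. Markers matched the labels of the lines: the summed level of 8 A549 markers was 13570 to 18790 CPM (counts scaled to library size) in A549 libraries against 788 to 1188 in Huh7, and that of 9 hepatocyte markers was 12660 to 23570 in Huh7 against 53.4 to 142 in A549. Markers of blood, fibroblast and endothelial cells (6 of 7 in the table) summed to at most 40.7 CPM in A549 and 87.4 in Huh7. The 3 Huh7 P. umbellatus libraries stood apart from the rest: their typical gene differed from the mean of the group's other libraries by 0.184, 0.332 and 0.233 on the log2 scale, against 0.07 to 0.126 in the other 21 libraries. The difference of replicate 2 from its mates followed GC content, with a slope of -0.47 log2 per 10% GC. The slopes of replicates 1 and 3 were 0.15 and 0.32, with replicate 2 among their mates. The comparisons of members within Huh7 that use this group are therefore given also without replicate 2 and after a correction for GC content and transcript length, and the interactions without replicate 2.

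To compare mean levels between genes, counts were divided by the length of each gene's canonical transcript and scaled to the same sum over all genes in each library (the TPM scale). These lengths ran from 1964 bases for E2F5 to 9880 for TFDP2. Where other transcripts of a gene are expressed the level may be off, and the ranges of the libraries do not measure that error. In A549 control cells the per-length level was highest for TFDP1, at 93.6 ± 4.23 (SD, n = 3), followed by E2F4 at 71.9 ± 8.66 and E2F1 at 65.8 ± 4.71. The library ranges of E2F4 and E2F1 overlapped. E2F5 (38.9 ± 5.55), E2F3 (31.9 ± 0.607), E2F8 (24.8 ± 1.68) and E2F7 (21.0 ± 0.745) followed without overlap between neighbours. E2F6 (16.4 ± 6.41) overlapped with both E2F7 and TFDP2 (13.4 ± 1.04), and E2F2 was lowest at 10.5 ± 0.696. In Huh7 control cells E2F1 led with a per-length level of 135 ± 2.6, above E2F4 at 77.3 ± 1.36 and TFDP1 at 69.8 ± 2.26. E2F8 (45.6 ± 1.98), E2F3 (27.3 ± 1.0), E2F5 (23.8 ± 2.43) and TFDP2 (17.7 ± 0.166) came next with no overlap between neighbours. E2F2 (12 ± 0.312) and E2F6 (11.7 ± 1.7) overlapped, and E2F7 was lowest at 5.38 ± 0.445. E2F1, first in Huh7 cells, ranked below TFDP1 in A549 cells.

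**Figure D1:**
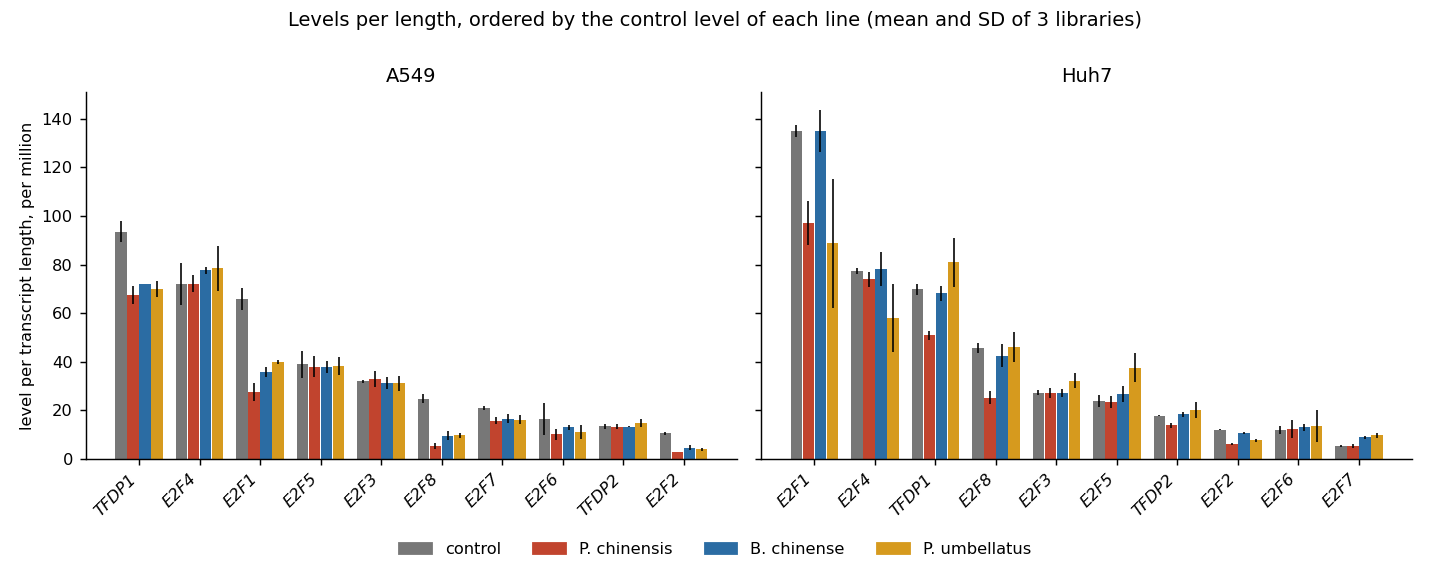
Level of each gene per transcript length (TPM scale, linear axis from 0), in A549 cells (left) and Huh7 cells (right). Bars are means of 3 libraries, error bars the SD, and genes are ordered by the control level of each line. TFDP1 led the A549 controls at 93.6 and E2F1 the Huh7 controls at 135.

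Between the control groups of the lines 7 of the 10 genes differed, as did 70.7% of all 14584 genes tested, so the count itself is what the background gives. E2F1 was lower in A549 than in Huh7 by 0.96 on the log2 scale (-0.96 ± 0.15 SE, edgeR adjusted p = 4.72e-06). E2F8 was also lower in A549 (-0.81 ± 0.13, edgeR adjusted p = 7.13e-06), as was TFDP2 (-0.33 ± 0.09, edgeR adjusted p = 0.00204). E2F7 had the largest difference of the family in the other direction, a log2 difference of 2.02 ± 0.11 or 4.06-fold more in A549 (edgeR adjusted p = 3.88e-13). E2F5 (0.78), TFDP1 (0.49) and E2F3 (0.30) were also higher in A549, with edgeR adjusted p between 3.76e-06 and 0.00224. The differences of E2F2, E2F4 and E2F6 did not pass the test.

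In A549 cells all 3 extracts lowered the RNA of the same 5 genes, E2F1, E2F2, E2F7, E2F8 and TFDP1, and no family member rose. With P. chinensis 6 of 10 members fell, against 17.1% of all 13633 genes tested, and 0 rose, against 15.8%. With B. chinense 5 fell (all genes 15.0%) and 0 rose (13.1%), and with P. umbellatus 5 fell (14.8%) and 0 rose (13.4%). At an unadjusted p below 0.05 the number that rose was also 0 with each extract in edgeR, and DESeq2 and voom called 0 as well. In the order P. chinensis, B. chinense, P. umbellatus, the median log2 fold change of the 10 members was -0.57, -0.44 and -0.49, where the median of all genes was 0.01, 0.00 and -0.01. The 3 comparisons share the A549 control libraries and are not independent of each other.

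Among the activators, E2F1 (ENSG00000101412, chromosome 20, 33675477 to 33686385), a driver of S phase entry, stood at 68.2, 72.9 and 77.2 CPM in the A549 control libraries, at 31.5, 28.3 and 24.98 with P. chinensis, at 36.0, 34.99 and 39.9 with B. chinense, and at 42.5, 41.3 and 40.9 with P. umbellatus. All 9 treated libraries lay below all 3 controls, and those of P. chinensis were lowest. In the same order of extracts, the log2 fold change was -1.36 ± 0.09 (SE), -0.98 ± 0.09 and -0.80 ± 0.09 (edgeR adjusted p = 4.54e-08, 1.92e-06 and 9.43e-06). E2F2 (ENSG00000007968, chromosome 1, 23506438 to 23531233), an activator with a single E2F match in the window shown above, stood at 20.8, 23.7 and 22.6 CPM in controls, at 5.15, 5.69 and 5.55 with P. chinensis, at 10.5, 7.13 and 9.94 with B. chinense, and at 7.04, 7.74 and 8.80 with P. umbellatus. Here too the treated and control libraries did not overlap. The log2 fold change of E2F2 was -1.99 ± 0.17, -1.27 ± 0.16 and -1.50 ± 0.16 (edgeR adjusted p = 4.55e-07, 4.29e-05 and 8.57e-06), which for P. chinensis is a loss of 74.9% of its RNA. E2F3 (ENSG00000112242, chromosome 6, 20401879 to 20493714), the remaining activator, stood at 67.0, 65.1 and 66.1 CPM in controls, at 68.3, 58.6 and 60.9 with P. chinensis, at 56.8, 65.9 and 57.9 with B. chinense, and at 56.8, 60.0 and 65.0 with P. umbellatus. Its log2 fold changes lay between -0.13 and -0.08, and none passed the test. The E2F3 promoter window shown above also holds E2F letters, and an alternative window of the gene holds none. The summed per-length level of the 3 activators was 108.1 ± 5.27 (SD) in controls, and 63.3 ± 6.57, 71.4 ± 0.165 and 75.0 ± 4.20 in the 3 treated groups in the same order.

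**Figure D2:**
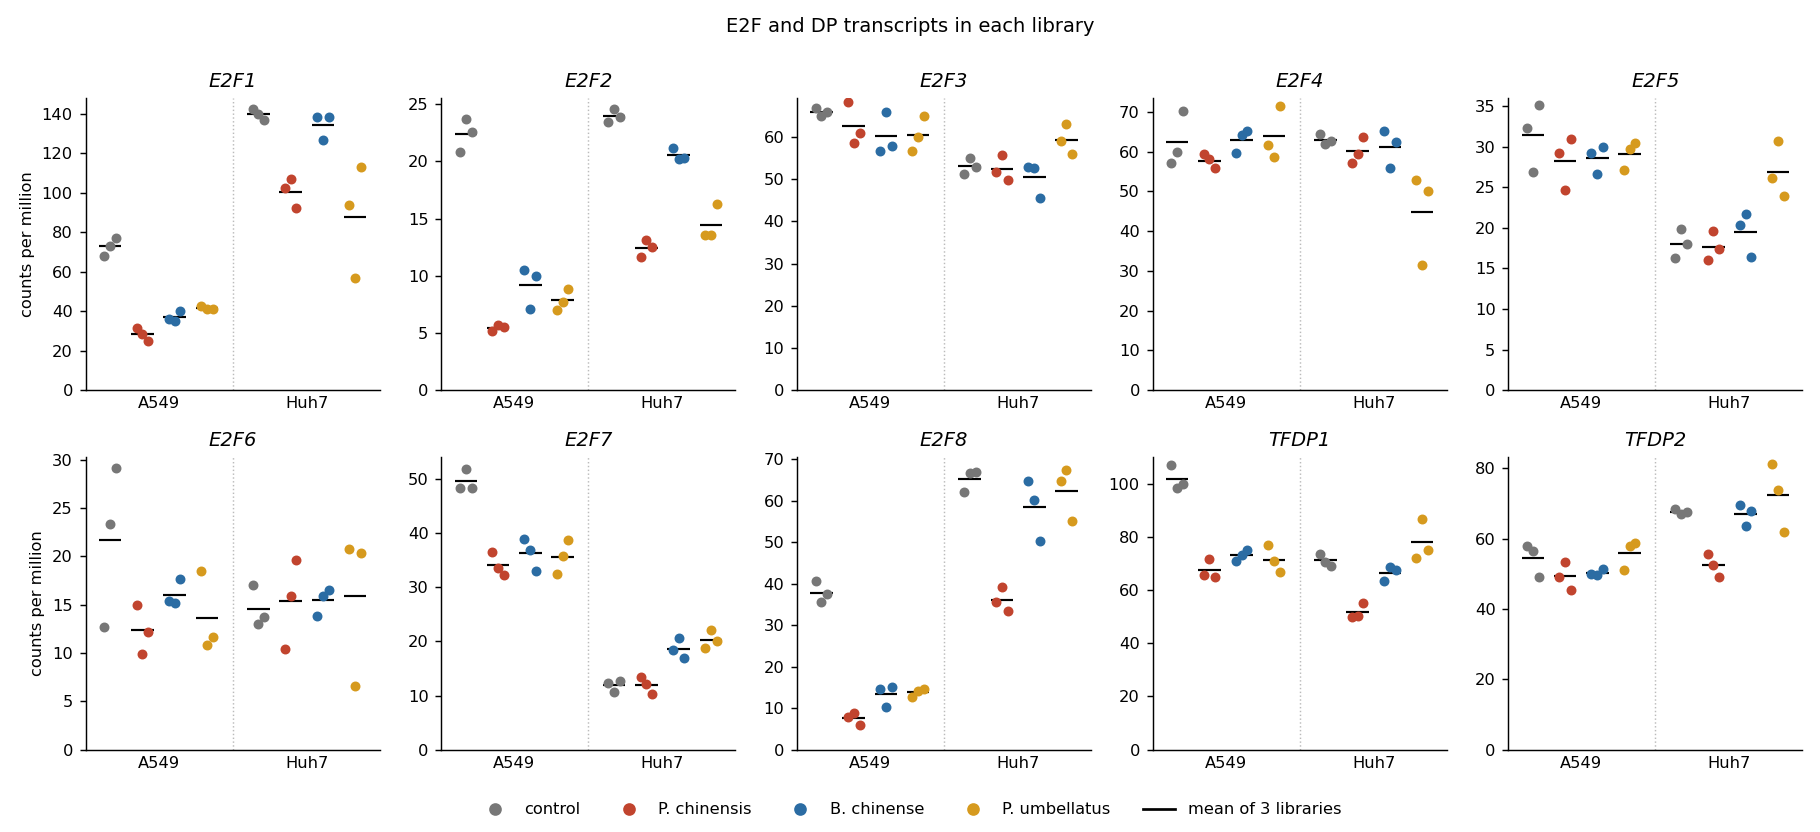
CPM of each of the 10 genes (linear axes from 0) in every library of A549 (left of the dotted line) and Huh7 (right), with a point per library and a black bar at the group mean. In A549, E2F1, E2F2, E2F7, E2F8 and TFDP1 lay below all 3 controls in all 9 treated libraries, and in Huh7 the E2F1 libraries of P. umbellatus spread from 56.6 to 113 CPM.

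The repressors that work with pocket proteins did not pass the test in A549 cells. E2F4 (ENSG00000205250, chromosome 16, 67192155 to 67198918), the main E2F of the DREAM repressor complex, ranged from 57.1 to 70.1 CPM in controls and from 55.8 to 71.5 in the treated libraries. E2F5 (ENSG00000133740), its closest relative, ranged from 26.9 to 35.1 CPM in controls and from 24.7 to 30.9 in the treated libraries. Treated and control ranges overlapped for both genes with each extract, and their log2 fold changes lay between -0.15 and 0.03. E2F4 had the highest mean per-length level of the family in each treated A549 group (72.1 ± 3.57, 77.6 ± 1.58 and 78.4 ± 9.33, SD), ahead of TFDP1 (67.3 ± 3.69, 72.1 ± 0.086 and 69.9 ± 3.14), which led in controls. The library ranges of E2F4 and TFDP1 overlapped with P. chinensis, met at 72.1 with P. umbellatus and did not overlap with B. chinense.

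E2F6 (ENSG00000169016, chromosome 2, 11444375 to 11466177), the Polycomb-linked repressor, stood at 12.7, 23.3 and 29.1 CPM in controls, at 15.0, 9.89 and 12.1 with P. chinensis, at 15.3, 15.1 and 17.7 with B. chinense, and at 18.5, 10.9 and 11.7 with P. umbellatus. Control replicate 1 lay far below the other controls, so that treated and control libraries overlapped with each extract. E2F6 fell with P. chinensis (-0.82 ± 0.27, edgeR adjusted p = 0.0296), and its log2 fold changes of -0.44 with B. chinense and -0.65 with P. umbellatus did not pass the test. The latter passed it without control replicate 1 or P. umbellatus replicate 1 (edgeR adjusted p = 0.00876 and 0.0249). The call with P. chinensis was lost when control replicate 2 or 3 or P. chinensis replicate 2 or 3 was left out (edgeR adjusted p 0.0750 to 0.156). The genome also holds 4 E2F6 pseudogenes that are not in the table, so part of the E2F6 estimate may depend on how reads shared with them were assigned.

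The atypical repressors fell with all 3 extracts. E2F8 (ENSG00000129173, chromosome 11, 19224063 to 19241620), itself made in S phase, stood at 40.5, 35.5 and 37.6 CPM in controls, at 7.84, 8.89 and 5.83 with P. chinensis, at 14.7, 10.4 and 15.1 with B. chinense, and at 12.6, 14.2 and 14.6 with P. umbellatus. The highest treated library (15.1) lay far below the lowest control (35.5), and those of P. chinensis were lowest. Its log2 fold changes of -2.31 ± 0.17, -1.49 ± 0.16 and -1.45 ± 0.16 (edgeR adjusted p = 1.14e-07, 9.53e-06 and 9.87e-06) included the largest of the family, and its rank by mean per-length level was 6 in controls and 9 with each extract. E2F7 (ENSG00000165891, chromosome 12, 77021248 to 77065569), which is also known as a target of p53, stood at 48.4, 51.9 and 48.4 CPM in controls, at 36.5, 33.6 and 32.2 with P. chinensis, at 38.9, 36.9 and 33.0 with B. chinense, and at 32.5, 35.7 and 38.8 with P. umbellatus. Treated and control libraries did not overlap, and the ranges of the 3 extracts did. The log2 fold change of E2F7 was -0.54 ± 0.09, -0.45 ± 0.09 and -0.48 ± 0.09 (edgeR adjusted p = 0.000359, 0.00218 and 0.00110).

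Of the DP genes, TFDP1 fell and TFDP2 did not pass the test. TFDP1 (ENSG00000198176, chromosome 13, 113584721 to 113641473), the main dimer partner of the E2Fs, stood at 107, 98.2 and 99.8 CPM in controls, at 65.7, 71.7 and 64.8 with P. chinensis, at 70.9, 73.3 and 75.1 with B. chinense, and at 77.0, 70.7 and 66.6 with P. umbellatus. All treated libraries lay below all controls. The log2 fold change was -0.59 ± 0.07, -0.47 ± 0.07 and -0.50 ± 0.07 (edgeR adjusted p = 1.17e-05, 0.000132 and 6.68e-05). TFDP2 (ENSG00000114126, chromosome 3, 141944428 to 142149544), the second DP gene, ranged from 49.0 to 57.9 CPM in controls and from 45.5 to 58.7 in the treated libraries, and its log2 fold changes lay between -0.14 and 0.03.

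The A549 libraries of the extract and the control did not overlap, with the extract lower, for 5 members after P. chinensis (all genes 22.6%), for 5 after B. chinense (21.4%) and for 6 after P. umbellatus (21.7%). E2F3 was the additional member with P. umbellatus. No member lay above all controls, where 22.6%, 19.1% and 19.9% of all genes did.

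**Figure D3:**
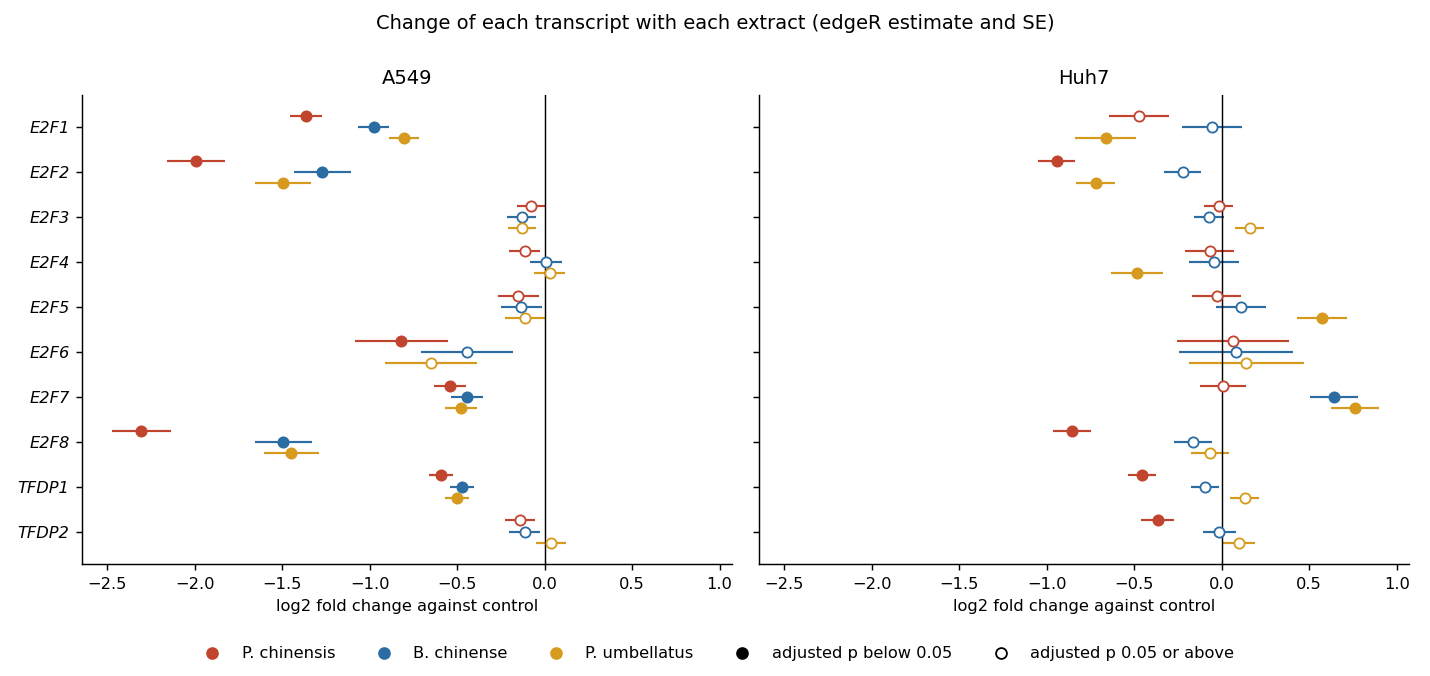
Log2 fold change of each gene against the control of the same line (edgeR estimate, bars are 1 SE) for the 3 extracts in A549 (left) and Huh7 (right). Filled points have an adjusted p below 0.05; in A549 the filled points all lie below 0, from -2.31 for E2F8 with P. chinensis to -0.45 for E2F7 with B. chinense, and in Huh7 they lie on both sides.

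Compared directly in A549 cells, the extracts differed in 0 to 2 members. P. chinensis and B. chinense differed in 1 of 10 (all genes 1.45%), which was E2F8, lower with P. chinensis by 0.81 on the log2 scale (-0.81 ± 0.18, edgeR adjusted p = 0.0341). P. chinensis and P. umbellatus differed in 2 (all genes 3.01%), namely E2F1 (-0.56 ± 0.09, edgeR adjusted p = 0.00579) and E2F8 (-0.86 ± 0.17, edgeR adjusted p = 0.0162), and P. chinensis was the lower in both. B. chinense and P. umbellatus differed in 0 (all genes 0.0513%) in edgeR, with 0 also at an unadjusted p below 0.05 and 0 in DESeq2 and voom. The E2F8 difference from B. chinense was lost when any of 6 libraries was left out, P. chinensis replicate 1 or 3, B. chinense replicate 1 or 3 or control replicate 2 or 3 (edgeR adjusted p 0.0537 to 0.163), and DESeq2 called 3 members, E2F1, E2F2 and E2F8. The call of E2F1 was gained without P. chinensis replicate 1 and that of E2F2 without B. chinense replicate 2 (edgeR adjusted p = 0.0437 and 0.0265). The E2F8 difference from P. umbellatus was lost without P. chinensis replicate 3 or P. umbellatus replicate 2 or 3 (edgeR adjusted p 0.0535 to 0.0858).

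In Huh7 cells P. chinensis lowered E2F2, E2F8 and both DP genes, B. chinense raised E2F7, and P. umbellatus changed 5 members in both directions. With P. chinensis 4 of 10 members fell, against 10.5% of all 13875 genes tested, and 0 rose, against 10.5%. With B. chinense 0 fell (all genes 0.757%) and 1 rose (0.519%), and with P. umbellatus 3 fell (17.8%) and 2 rose (19.3%). The number that rose with P. umbellatus is thus near what the background gives. The counts of 0 were also 0 at an unadjusted p below 0.05 in edgeR, and 0 in DESeq2 and voom. The median log2 fold change of the members was -0.22, -0.05 and 0.11, where that of all genes was 0.01, 0.00 and 0.03. These comparisons share the Huh7 control libraries.

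With P. chinensis the activator E2F2 fell in Huh7 cells, from 23.5, 24.6 and 23.9 CPM in controls to 11.6, 13.2 and 12.5 (-0.94 ± 0.11, edgeR adjusted p = 7.27e-05). E2F1 stood at 142, 140.1 and 137 CPM in controls and at 102, 107.0 and 92.2 with P. chinensis. The E2F1 libraries did not overlap, but its difference of -0.47 ± 0.17 did not pass the test of the 12 libraries (edgeR adjusted p = 0.0707). The spread used in that test includes the P. umbellatus libraries. Without P. umbellatus replicate 2 the same difference passed it (-0.47 ± 0.07, edgeR adjusted p = 0.000281), as it did without P. umbellatus replicate 3 (edgeR adjusted p = 0.0216), in a fit of only the 6 libraries compared (edgeR adjusted p = 8.73e-05) and in DESeq2 (adjusted p = 0.0367). Without replicate 2 the number of members that fell with P. chinensis was 5. The 10.5% of all genes belongs to the fit of the 12 libraries, and the share without replicate 2 is not given here. The libraries of E2F3 overlapped, at 51.4 to 54.98 CPM in controls and 49.8 to 55.8 with P. chinensis.

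The atypical E2F8 fell in Huh7 cells with P. chinensis, from 62.2, 66.8 and 67.0 CPM to 35.6, 39.1 and 33.3 (-0.86 ± 0.11, edgeR adjusted p = 0.00017). E2F7, the other atypical member, overlapped between groups, at 12.3, 10.7 and 12.6 CPM in controls and 13.4, 12.1 and 10.2 with P. chinensis, a log2 difference of 0.01. Both DP genes fell. TFDP1 went from 73.7, 70.5 and 69.1 CPM to 49.98, 50.4 and 55.1 (-0.46 ± 0.08, edgeR adjusted p = 0.00183), and TFDP2 from 68.4, 66.9 and 67.5 CPM to 55.7, 52.6 and 49.0 (-0.37 ± 0.09, edgeR adjusted p = 0.0162). None of these libraries overlapped between groups for E2F8, TFDP1 or TFDP2. The call of TFDP2 was lost without P. chinensis replicate 3 or control replicate 1 or 3 (edgeR adjusted p 0.0520 to 0.0743). E2F4, E2F5 and E2F6, the repressors that are not atypical, had log2 differences between -0.07 and 0.06. A total of 5 members lay below all controls in every P. chinensis library, E2F1, E2F2, E2F8, TFDP1 and TFDP2 (all genes 26.6%), and 0 lay above (all genes 26.7%).

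With B. chinense the single change in Huh7 cells was a rise of E2F7. It stood at 12.3, 10.7 and 12.6 CPM in controls and at 18.3, 20.6 and 17.0 with B. chinense, so every treated library was higher (0.64 ± 0.14, edgeR adjusted p = 0.0408). The call was lost when any of 8 libraries was left out, each control, each B. chinense library and P. chinensis replicate 1 or 2 (edgeR adjusted p 0.0537 to 0.176), and it held without P. umbellatus replicate 2. The other members had log2 differences between -0.22 and 0.11 that did not pass the test, though the B. chinense libraries of E2F2, at 21.2, 20.2 and 20.3 CPM, and of TFDP1, at 63.5, 68.6 and 67.5, lay below all controls. In all, 2 members lay below all controls (all genes 15.4%) and 1 above (all genes 13.7%).

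With P. umbellatus in Huh7 cells the activators E2F1 and E2F2 and the repressor E2F4 fell, and E2F5 and E2F7 rose. E2F1 stood at 93.8, 56.6 and 113 CPM in replicates 1 to 3, below all controls but widely spread (-0.66 ± 0.18, edgeR adjusted p = 0.0126). E2F2, at 13.6, 13.5 and 16.3 CPM, lay below all controls with little spread (-0.72 ± 0.11, edgeR adjusted p = 0.00108). E2F4 stood at 52.8, 31.5 and 50.03 CPM against 64.3, 61.9 and 62.7 in controls (-0.48 ± 0.15, edgeR adjusted p = 0.0227). Replicate 2 was lowest for both E2F1 and E2F4. E2F5 stood at 26.1, 30.7 and 23.9 CPM against 16.3, 19.8 and 17.97 in controls (0.57 ± 0.14, edgeR adjusted p = 0.00969), and E2F7 at 18.8, 22.2 and 20.01 CPM (0.76 ± 0.14, edgeR adjusted p = 0.00223), both above all controls. E2F8 kept 64.8, 67.4 and 55.04 CPM and TFDP1 72.2, 86.9 and 75.0, and neither difference passed the test (-0.07 and 0.13). The members below all controls were thus 3 (all genes 23.6%) and those above 3, E2F3, E2F5 and E2F7 (all genes 24.8%).

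The members that fell with P. umbellatus in Huh7 were those of highest GC content. The canonical transcripts of the 3 members that fell hold 57.4% to 61.6% GC, and those of the other 7 members 43.1% to 46.9%. After the correction for GC content and length, E2F1 was at -0.10 (edgeR adjusted p = 0.344) and E2F4 at -0.11 (edgeR adjusted p = 0.357), and both calls were lost. E2F2 stayed lower (-0.42, edgeR adjusted p = 0.0166), E2F5 and E2F7 stayed higher (0.41 and 0.45, edgeR adjusted p = 0.0359 and 0.0259), and E2F8 then fell (-0.34, edgeR adjusted p = 0.0196). Without replicate 2, by contrast, all 5 calls held, with E2F1 at -0.43 and E2F4 at -0.29, and none was lost without replicate 1 or replicate 3. In the fit of only the 6 libraries compared, the calls of E2F1, E2F4 and E2F5 were lost (edgeR adjusted p = 0.0827, 0.103 and 0.0580). Without control replicate 1 or 3 the call of E2F4 was lost (edgeR adjusted p = 0.0624 and 0.0569). The correction was fitted to each library without regard to its group. It would therefore also remove a response to the extract that follows GC content or length. The part of library quality in these changes was not tested beyond these fits.

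Compared directly in Huh7 cells, P. chinensis and B. chinense differed in 5 members (all genes 7.81%), all lower with P. chinensis. These were E2F2 (-0.72 ± 0.11), E2F8 (-0.69 ± 0.11), E2F7 (-0.63 ± 0.14), TFDP1 (-0.36 ± 0.08) and TFDP2 (-0.35 ± 0.10), with edgeR adjusted p between 0.00172 and 0.0423. The calls of 3 of them were lost without certain libraries: TFDP2 when any 1 of the 9 control, P. chinensis and B. chinense libraries was left out, TFDP1 without P. chinensis replicate 1 or 2 or B. chinense replicate 2 or 3, and E2F7 without P. chinensis replicate 3 or B. chinense replicate 2 (edgeR adjusted p 0.0508 to 0.172). P. chinensis and P. umbellatus differed in 6 (all genes 35.4%), with E2F5, E2F7, E2F8, TFDP1 and TFDP2 lower with P. chinensis (log2 differences of -0.79 to -0.46) and E2F4 higher (0.42 ± 0.15, edgeR adjusted p = 0.0430). With the GC and length correction E2F4 stood at 0.07 (edgeR adjusted p = 0.578) and TFDP2 at -0.20 (edgeR adjusted p = 0.0530), and both calls were lost. Without P. umbellatus replicate 2 E2F4 was at 0.22 (edgeR adjusted p = 0.0409) and TFDP2 at -0.44, both called. B. chinense and P. umbellatus differed in 4 (all genes 27.3%), E2F1, E2F2 and E2F4 higher and E2F5 lower with B. chinense. The calls of E2F4 in both comparisons with P. umbellatus were lost when any 1 of the 9 control, P. chinensis and B. chinense libraries was left out (edgeR adjusted p 0.0513 to 0.123). Against B. chinense, the call of E2F1 was lost when any 1 B. chinense library was left out, and that of E2F5 when any 1 of 10 libraries was, all but control replicate 1 and P. umbellatus replicate 3 (edgeR adjusted p 0.0504 to 0.147). Without P. umbellatus replicate 2, P. chinensis and B. chinense differed also in E2F1 (edgeR adjusted p = 0.00174). After the GC and length correction B. chinense and P. umbellatus differed in 0 members. The sign of the E2F1 difference between P. chinensis and P. umbellatus, 0.19 and not called, turned to -0.29 with the correction (edgeR adjusted p = 0.0102), and E2F2 was then also called (-0.43, edgeR adjusted p = 0.0154).

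Whether the lines responded differently was tested as an interaction over all 24 libraries. The response to P. chinensis differed in 4 members (all genes 19.6% of the 12924 tested in both lines), that to B. chinense in 5 (11.6%) and that to P. umbellatus in 6 (34.4%). The values that follow are the log2 response of A549 minus that of Huh7, in the order P. chinensis, B. chinense, P. umbellatus. E2F8 had the largest interaction of the family with each extract, at -1.40 ± 0.20, -1.30 ± 0.19 and -1.30 ± 0.19 (edgeR adjusted p = 1.84e-05, 7.99e-05 and 3.28e-05). E2F2 also fell further in A549 each time, at -1.01, -1.01 and -0.70. E2F1 fell further in A549 for the first 2 extracts (-0.84 and -0.88), and for P. umbellatus its value of -0.06 did not pass the test, but was -0.34 and passed it without Huh7 P. umbellatus replicate 2 (edgeR adjusted p = 0.0369). E2F7 differed each time, at -0.50, -1.04 and -1.16, and after B. chinense and P. umbellatus it fell in A549 and rose in Huh7. TFDP1 differed for B. chinense (-0.34) and P. umbellatus (-0.55). For P. umbellatus, E2F5 (-0.60) was also lower in A549 relative to Huh7 and E2F4 higher (0.60 ± 0.18, edgeR adjusted p = 0.0130). The E2F4 call was lost when only the groups compared were fitted (0.55, edgeR adjusted p = 0.0882). Without Huh7 P. umbellatus replicate 2 the calls named here were kept, and the count with P. umbellatus was 8, with E2F1 and E2F6 (-1.11, edgeR adjusted p = 0.0299) added. The share of all genes in that fit is not given here. The interactions were not fitted with the GC and length correction. The TFDP1 difference with B. chinense was lost when any 1 of 12 libraries was left out, namely each A549 control or B. chinense library, A549 P. chinensis replicate 1, A549 P. umbellatus replicate 2, and replicates 2 and 3 of the Huh7 controls and of Huh7 B. chinense (edgeR adjusted p 0.0507 to 0.106). The E2F7 difference with P. chinensis was lost without A549 P. chinensis replicate 2 or 3, A549 control replicate 2, Huh7 P. chinensis replicate 1 or Huh7 control replicate 2 (edgeR adjusted p 0.0566 to 0.0790).

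Over the 24 libraries, with each line's mean subtracted, the log2 CPM of each member was compared with that of every gene outside the family. The genes most like E2F1 were CDT1, a replication licensing factor (Pearson's r = 0.970), TK1, thymidine kinase (0.969), and KIF18B, a mitotic kinesin (0.964). For E2F2 they were MCM2, a subunit of the replicative helicase (0.975), and the histone genes H2AC11 (0.969) and H2AC20 (0.966). For E2F8 they included CDC6 (0.973) and MCM4 (0.971), which serve origin licensing and DNA unwinding. TFDP1 was most like MMS22L, HLTF and NUP155 (0.948 to 0.936). The genes named for E2F1, E2F2 and E2F8 are S phase and mitosis genes. For the remaining members, E2F4 was most like LMF2, SLC4A2 and SF3A1 (0.944 to 0.938), TFDP2 like LRP8, DDX17 and EIF4EBP2 (0.888 to 0.878), E2F5 like TWSG1, CDK6 and BLTP3B (0.839 to 0.828), E2F7 like MAP3K21, GNB4 and PRR14L (0.837 to 0.800), E2F6 like SLC2A4, AMH and PPAN (0.811 to 0.754), and E2F3 like USP10, NTAQ1 and CALCOCO2 (0.763 to 0.749). These correlations share groups and library effects and carry no test. Some differed by line: SF3A1 with E2F4 had r of 0.567 in A549 and 0.99 in Huh7. The 3 genes named for E2F5 had 0.451 to 0.617 in A549 and 0.878 to 0.887 in Huh7. MAP3K21 with E2F7 went the other way, at 0.926 and 0.811. The genes named for E2F1, E2F2 and E2F8 had at least 0.92 in both lines. Within the family, E2F1, E2F2, E2F8 and TFDP1, a set chosen after seeing the values, had pairwise r of 0.905 to 0.974 over the 12 A549 libraries and of -0.03 to 0.861 over the 12 Huh7 libraries. The other 39 pairs of members had r of -0.32 to 0.898 in A549 and of -0.79 to 0.901 in Huh7. The Huh7 libraries include those of P. umbellatus that stood apart.

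The genes around the family were read from lists. The first list held 31 genes known as E2F targets of the G1/S transition. Of these, 29 fell in A549 cells with P. chinensis (all genes 17.1%), 29 with B. chinense (15.0%) and 30 with P. umbellatus (14.8%). Their median log2 fold change was -1.31, -0.98 and -0.94. The largest fall with P. chinensis (-1.81) and with P. umbellatus (-1.31) was that of GINS2, a replication fork subunit. In Huh7 cells 26 of the 31 fell with P. chinensis (all genes 10.5%), with a list median of -0.51 and led by the helicase subunit MCM6 (-0.77). With B. chinense 1 fell (all genes 0.757%), MCM3 (-0.31). With P. umbellatus 11 fell (all genes 17.8%) and 2 rose (19.3%), with a list median of -0.09 and CDT1 at -0.90 as the largest fall. With the GC and length correction 15 fell with P. umbellatus, CDT1 was at -0.16 and its call was lost, and without P. umbellatus replicate 2 the counts were 15 and 1. The MCM3 call was lost when any 1 control or B. chinense library was left out (edgeR adjusted p 0.0548 to 0.0918), and 5 of the list fell with B. chinense without P. umbellatus replicate 2. Shares of all genes are not given for such alternative fits, here or below.

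A second list held 19 G2/M genes that E2F4 and the DREAM complex are known to repress. All 19 fell with each extract in A549 cells (medians -1.32, -1.10 and -1.05), against 17.1%, 15.0% and 14.8% of all genes. The largest fall was that of NUSAP1, a spindle protein, with P. chinensis (-1.67) and B. chinense (-1.45) and that of CENPF, a kinetochore protein, with P. umbellatus (-1.24). In Huh7 cells 3 fell and 3 rose with P. chinensis (all genes 10.5% and 10.5%), and 2 fell and 5 rose with P. umbellatus (all genes 17.8% and 19.3%). TOP2A, the topoisomerase of mitosis, fell with P. chinensis in Huh7 (-0.63), while KIF20A, a kinesin of cell division, rose (0.36). The P. chinensis counts in Huh7 were 7 and 4 without P. umbellatus replicate 2 and 7 and 2 with the GC and length correction, which gave 4 and 2 with P. umbellatus. With P. chinensis in Huh7 cells, 26 of 31 G1/S genes and 3 of 19 G2/M genes fell in the fit of all 12 libraries. Without P. umbellatus replicate 2 the numbers that fell were 28 and 7. The difference between the lists was not tested.

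**Figure D4:**
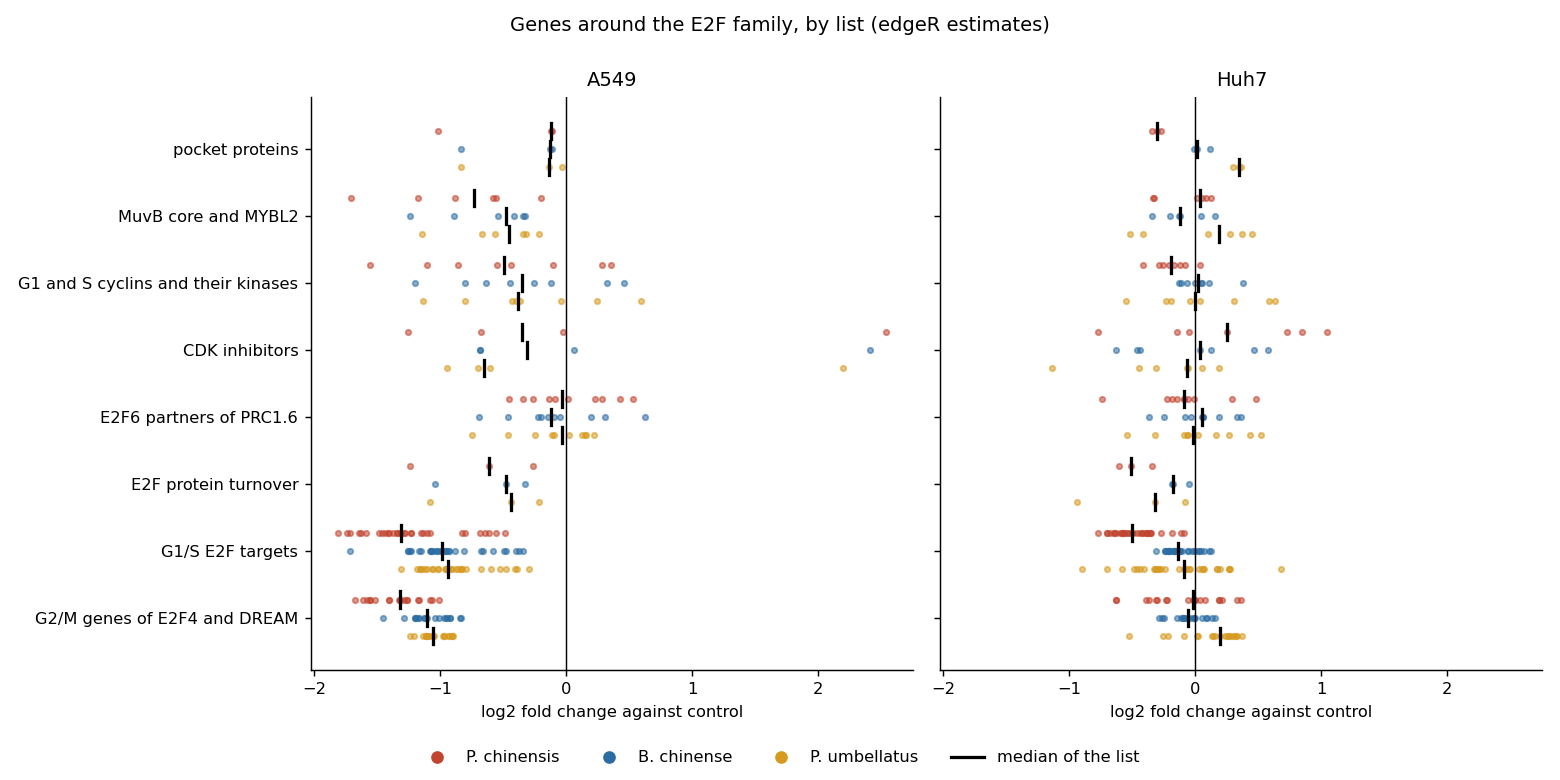
Log2 fold change against control (edgeR estimates) of each gene of 8 lists around the E2F family, for the 3 extracts in A549 (left) and Huh7 (right). A point is a gene and a black bar the median of a list; the G1/S and G2/M lists have medians from -1.32 to -0.94 in A549 and from -0.51 to 0.20 in Huh7.

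Upstream of the E2Fs, the pocket protein gene RBL1 fell with each extract in A549 cells (-1.01 ± 0.09, -0.84 ± 0.09 and -0.83 ± 0.09, edgeR adjusted p at most 7.47e-06), from 90.0 CPM in controls to 44.4, 50.5 and 50.5. RB1, the retinoblastoma gene, and RBL2 did not pass the test in A549, with log2 differences between -0.14 and -0.03. In Huh7 cells RBL1 fell with P. chinensis (-0.35 ± 0.10, edgeR adjusted p = 0.0258), a call lost without P. chinensis replicate 1 or 3 or control replicate 1 or 2 (edgeR adjusted p 0.0529 to 0.0975). With P. umbellatus in Huh7 RB1 (0.36) and RBL1 (0.30) rose (edgeR adjusted p = 0.0231 and 0.0318), but stood at -0.10 and -0.09 under the GC and length correction. The RB1 call was lost without control replicate 1 or 2, and the RBL1 call when any 1 of 9 libraries was left out, each control, each B. chinense library, P. chinensis replicate 1 or 2 or P. umbellatus replicate 2 (edgeR adjusted p 0.0510 to 0.124). CDKN1A, the p21 inhibitor of cyclin-dependent kinases and a target of p53, rose in A549 from 79.1 CPM to 462, 424 and 365 (log2 fold changes of 2.54 ± 0.08, 2.41 ± 0.08 and 2.20 ± 0.08, edgeR adjusted p at most 8.73e-10). In Huh7 it rose with P. chinensis, from 12.7 to 21.2 CPM (0.73 ± 0.17, edgeR adjusted p = 0.0088), a call lost without control replicate 2 (edgeR adjusted p = 0.0541). Of the other inhibitor genes tested in A549, CDKN1B and CDKN2C fell with each extract. In Huh7 CDKN2A, whose products include the p16 inhibitor of CDK4 and CDK6, fell with P. chinensis (-0.77 ± 0.16, edgeR adjusted p = 0.00437) and with P. umbellatus (-1.14 ± 0.17, edgeR adjusted p = 0.000929), the latter at -0.68 under the GC and length correction and still called. CDKN2B, the gene of the p15 inhibitor, fell with B. chinense in Huh7 (-0.46 ± 0.09, edgeR adjusted p = 0.0205), a call lost without B. chinense replicate 1 or 2 or control replicate 1 or 3 (edgeR adjusted p 0.0741 to 0.131).

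Of the 8 cyclins and kinases of G1 and S phase that were tested in A549 cells, 5 fell and 1 rose after P. chinensis (all genes 17.1% and 15.8%). After B. chinense 5 fell and 2 rose (15.0% and 13.1%), and after P. umbellatus 4 fell and 2 rose (14.8% and 13.4%). Cyclin A gene CCNA2 fell most (-1.55, -1.20 and -1.14), and CCND1, the cyclin D1 gene, rose with each (0.36, 0.32 and 0.24). In Huh7 cells 2 of 8 fell with P. chinensis (all genes 10.5%), CDK2 (-0.42) and CCND1 (-0.26). With P. umbellatus 3 fell (all genes 17.8%) and 3 rose (19.3%), with CDK6 at 0.63. Without P. umbellatus replicate 2 these counts were 3 for P. chinensis and 1 and 2 for P. umbellatus, and with the GC and length correction 4 for P. chinensis and 1 and 1 for P. umbellatus, with CDK6 at 0.21 and still called. The products of the 6 MuvB and MYBL2 genes join E2F4 in DREAM or activate G2/M genes. Of these 6, 5, 4 and 4 fell in A549 (all genes 17.1%, 15.0% and 14.8%), led by MYBL2 (-1.71, -1.24 and -1.15). In Huh7 1 of the 6 fell with P. chinensis (all genes 10.5%), RBBP4 (-0.34), a call lost without P. chinensis replicate 3 (edgeR adjusted p = 0.0520). With P. umbellatus 1 fell (all genes 17.8%), MYBL2 (-0.51), and 1 rose (all genes 19.3%), LIN54 (0.45). The MYBL2 call was lost when any 1 control was left out (edgeR adjusted p 0.0579 to 0.0590), and under the GC and length correction MYBL2 stood at -0.05 and the LIN54 call was lost.

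Of 10 partners of E2F6 in its Polycomb complex, 2 fell and 1 rose with P. chinensis in A549, 1 and 1 with B. chinense, and 2 fell with P. umbellatus, near the shares of all genes (17.1% and 15.8%, 15.0% and 13.1%, and 14.8% lower). CBX3, a chromatin reader, fell with each extract (-0.45, -0.46 and -0.46), and YAF2 rose with P. chinensis (0.53) and B. chinense (0.63), the former call lost without P. chinensis replicate 3 (edgeR adjusted p = 0.0619). In Huh7 1 of the 10 fell with P. chinensis (all genes 10.5%), PCGF6 (-0.74). This call was lost without P. chinensis replicate 2 or 3 or control replicate 2 or 3 (edgeR adjusted p 0.0529 to 0.0820). With P. umbellatus 2 rose (all genes 19.3%), MGA (0.27) and RNF2 (0.43), the latter at -0.04 under the GC and length correction. Of 3 genes for the turnover of E2F proteins, CCNF, SKP2 and FZR1, 3, 3 and 2 fell in A549 (all genes 17.1%, 15.0% and 14.8%). CCNF, which encodes cyclin F, fell with each extract (-1.24, -1.04 and -1.08), as did SKP2 (-0.61, -0.48 and -0.44). FZR1 fell with P. chinensis and B. chinense. In Huh7 SKP2 (-0.60) and CCNF (-0.51) fell with P. chinensis (all genes 10.5%), and FZR1 (-0.93) and CCNF (-0.32) with P. umbellatus (all genes 17.8%). The FZR1 call was lost in the fit of only the 6 libraries compared (edgeR adjusted p = 0.0562), and FZR1 stood at -0.28 under the GC and length correction and at -0.67 without P. umbellatus replicate 2, both called. Without that library FZR1 was the only gene of the list that fell.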

How the data were processed

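Total RNA of A549 and Huh7 cells was sequenced as stranded, ribosomal RNA depleted paired-end libraries. The deposited values are estimated counts per gene that the authors obtained with kallisto against the Ensembl cDNA of GRCh38.p13 after FastQC, restricted to protein-coding genes with a mean above 5. How transcripts were summed and rounded is not given in the sources used here. All 24 columns were matched to a sample by name.

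Genes with a mean count above 5 over the 12 libraries of a line were tested with the quasi-likelihood test of edgeR 4.0.16 (R 4.3.3, TMM normalization, a coefficient per group, prior count 2), with Benjamini-Hochberg adjustment over all genes tested and a threshold of 0.05. Interactions were fitted over all 24 libraries. The script was tested on simulated data. Levels (CPM) used TMM library sizes. Per-length levels divide by the canonical transcript length in GENCODE, which also gave gene coordinates (GRCh38) and GC content. All values are on whole-culture RNA, and estimates of genes with related loci (pseudogenes of E2F3, E2F4, E2F6 and TFDP1, and TFDP3) may share reads with them.

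The family and the gene lists were chosen with earlier results of these data known, so list counts are descriptions. Named genes were all 10 members, the gene with the largest called change of each list, CDKN1A, RB1, RBL1 and RBL2, and the 3 genes most correlated with each member. Some genes that this rule names are not reported here. Other list genes were named after their values were seen. Alternatives were DESeq2 1.42.0, RLE and upper quartile scaling, a fit of the 6 libraries compared, voom with quality weights (limma 3.58.1), no filter, a mean above 50, the replicate number as a block, a GC and length correction, and leaving out each library. Shares of all genes are given for the edgeR fits reported and not for these alternatives. Replicates of a group differed beyond sampling noise. Libraries with the same replicate number did not deviate together.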

Additional observations from a re-analysis of the deposited data

Results flagged for a closer look

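The responses of the lines to an extract differed by the interaction test in 15 of the 30 combinations of member and extract. This brought the values below up for a closer look. By extract the counts were 4, 5 and 6 of 10 members for P. chinensis, B. chinense and P. umbellatus. The same tests called 19.6%, 11.6% and 34.4% of all 12924 genes. Each value is the log2 response of A549 minus that of Huh7. For P. chinensis it was -0.84 for E2F1, -1.01 for E2F2, -0.50 for E2F7 and -1.40 for E2F8. For B. chinense it was -0.88 for E2F1, -1.01 for E2F2, -1.04 for E2F7, -1.30 for E2F8 and -0.34 for TFDP1. For P. umbellatus it was -0.70 for E2F2, 0.60 for E2F4, -0.60 for E2F5, -1.16 for E2F7, -1.30 for E2F8 and -0.55 for TFDP1. In each combination the difference itself was tested (edgeR). The values of P. umbellatus rest on the Huh7 libraries that stood apart. Without Huh7 P. umbellatus replicate 2, the E2F4 value was 0.36 (edgeR adjusted p = 0.0312) and the E2F5 value -0.55 (edgeR adjusted p = 0.0288). The interactions were not fitted with the GC and length correction. Within Huh7, that correction put E2F4 with P. umbellatus at -0.11 (edgeR adjusted p = 0.357) and E2F5 at 0.41 (edgeR adjusted p = 0.0359). The E2F4 call was lost when only the groups compared were fitted (0.55, edgeR adjusted p = 0.0882).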

How the results depend on the processing

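The 66 called differences of members were recomputed 1540 times and kept their direction each time, and in 116 of these the call was lost, 27 under other settings and 89 with a library left out. Of the counts of members, 448 of 490 recomputed values stayed within 1.5 times the reported one. In A549 the number of members that differed between P. chinensis and B. chinense (1) was 3 with DESeq2, 2 with the GC and length correction, and 0 with the 6 libraries compared, voom or the replicate block. That between P. chinensis and P. umbellatus (2) was 1 with the 6 libraries. In Huh7 the 6-library fit gave 1 lower and 1 higher member with P. umbellatus (3 and 2) and 0 between B. chinense and P. umbellatus (4), for which voom gave 2 and the GC and length correction 0. The member that rose with B. chinense in Huh7 (1) was 0 with the replicate block. With 1 library left out, the count ranged from 0 to 2 for P. chinensis against B. chinense in A549, from 1 to 2 for P. chinensis against P. umbellatus in A549, from 0 to 1 for members higher with B. chinense in Huh7, from 2 to 6 for P. chinensis against B. chinense in Huh7 and from 1 to 6 for B. chinense against P. umbellatus in Huh7. The GC and length correction reversed RNF2 (-0.041), RB1 (-0.103) and RBL1 (-0.087) with P. umbellatus in Huh7, where they had been higher by 0.43, 0.36 and 0.30. Among 85 member differences with an unadjusted edgeR p of 0.05 or above, 44 changed sign under some alternative, and the largest of these was 0.19. In 1 recomputation the reversed value was called. The other 9 uncalled differences kept their sign. The replicate number as a block cost the calls of E2F8 between P. chinensis and B. chinense in A549 (edgeR adjusted p = 0.0711), of E2F7 with B. chinense in Huh7 (edgeR adjusted p = 0.0840) and of the TFDP1 difference between lines with B. chinense (edgeR adjusted p = 0.0538). Same-numbered libraries did not deviate together (r from -0.10 to 0.08). Whether they were cultured or prepared together is not stated, and these correlations cannot tell. The cause of these losses was not tested. The smallest member count, 44 reads for E2F2, limits the precision of the lowest members, and 3 libraries per group limit that of all.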
